A study of Mus musculus with 6 samples.

Results

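The Schlafen genes are an interferon-linked family, described here by its 7 members Slfn1, Slfn2, Slfn3, Slfn4, Slfn5, Slfn8 and Slfn9. They were found by gene symbol, and all 7 were among the 24493 genes of the table. Bulk RNA sequencing covered 6 libraries of mouse pancreatic tumor cells of the clonal line 6419c5, sorted from tumors grown under the skin of C57BL/6 mice. The 4 control libraries came from untreated tumors. The 2 GAFCP libraries came from tumors given gemcitabine and abraxane, which are chemotherapies, together with an agonist of CD40 and blockade of both CTLA-4 and PD-1. The sources used here do not give the time on treatment, the age of the mice or the sorting gate, and do not say if each library is a separate animal. The p-values below then describe the spread among these 6 libraries alone, and that spread may be technical. The tumor cells were all of this line, and the libraries also held transcripts of host cells, given below.

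Schlafen proteins share a core domain at their amino-terminal end that binds and, in some members, cuts RNA, transfer RNA in particular. Mouse members come in short forms (Slfn1 and Slfn2), intermediate forms (Slfn3 and Slfn4) and long forms (Slfn5, Slfn8 and Slfn9), the last carrying a helicase-like domain at the other end. The family was first described in developing and resting T cells, several members are induced by interferon in macrophages, and the human relative SLFN11 sensitizes tumor cells to drugs that damage DNA. The comparison asks how these transcripts differed between treated and control tumor cells.

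With GAFCP the family's summed level went from 73.2 ± 3.86 TPM (SD, n = 4) in controls to 232.3 ± 4.40 TPM (SD, n = 2). TPM is transcript abundance corrected for length, with an equal total per library. Slfn2 made up most of it in every library, and Slfn4 and Slfn1 had the largest ratios of group means, 4.47 and 4.49. The long members were about 2-fold higher, with ratios of 2.25 for Slfn5, 2.25 for Slfn8 and 1.92 for Slfn9. Slfn3 stayed at or under 1.16 TPM in every library. Every member was higher in both GAFCP libraries than in all controls. So were 24.7% of the 13720 genes tested, which do not include Slfn3.

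**Figure D1:**
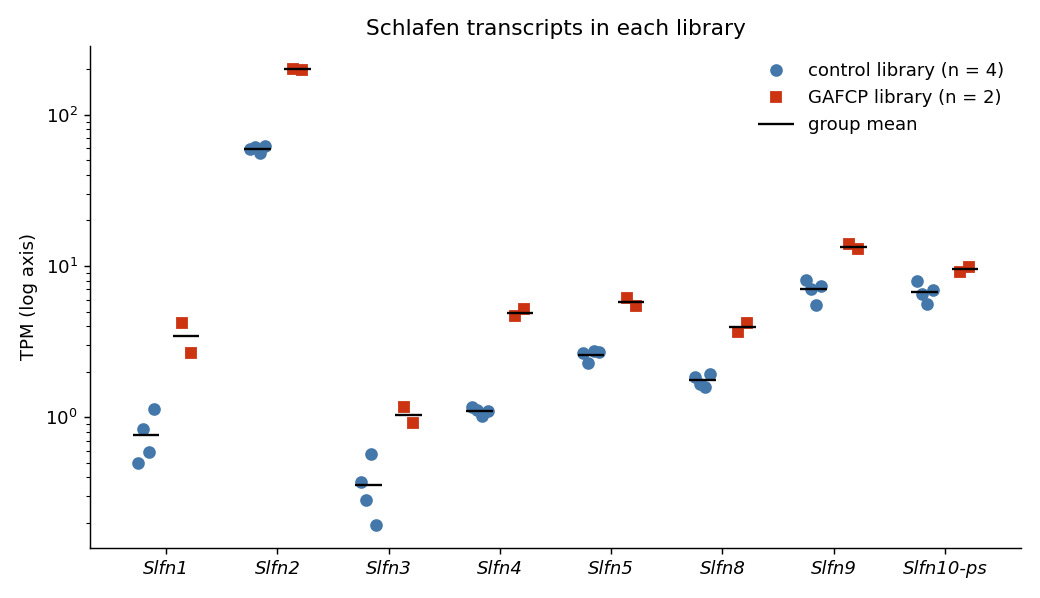
TPM on a log axis for the 7 Schlafen members and the related pseudogene Slfn10-ps, with circles for the 4 control libraries, squares for the 2 GAFCP libraries and lines for group means. Slfn2 lies near 60 TPM in controls and near 199.7 TPM with GAFCP, and for all 8 genes the squares lie above the circles.

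The 7 members form a cluster on chromosome 11, spanning 264 kb from the start of Slfn5 to the end of Slfn3 (GRCm38.p6, the assembly also called mm10). The long members lie first, with Slfn5 on the plus strand at 82951349 to 82964850 and Slfn9 and Slfn8 on the minus strand at 82974316 to 82991830 and 83002125 to 83020810. The pseudogene Slfn10-ps follows at 83028123 to 83040533. The short and intermediate members are all on the plus strand, Slfn2 at 83065112 to 83070678, Slfn1 at 83116820 to 83122670, Slfn4 at 83175172 to 83190216 and Slfn3 at 83191330 to 83215154.

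A motif linked to interferon was found in the promoter windows of the long members and not in those of the other members. Sequences below are the 250 bases before the annotated transcript start, from RefSeq on GRCm38.p6, 5′ to 3′ on the gene's own strand. They are shown for the long members and for the most abundant short and intermediate members. In the long members, capitals mark a match on either strand to 2 copies of GAAA with any 2 bases between them, the core of the interferon-stimulated response element (ISRE) bound by interferon regulatory factors. The windows lie at chr11:82951852-82952101 on the plus strand (Slfn5), chr11:82991831-82992080 on the minus strand (Slfn9) and chr11:83020811-83021060 on the minus strand (Slfn8). The Slfn5 window lies inside the span of the gene, before the start of one of its transcripts.
Slfn5: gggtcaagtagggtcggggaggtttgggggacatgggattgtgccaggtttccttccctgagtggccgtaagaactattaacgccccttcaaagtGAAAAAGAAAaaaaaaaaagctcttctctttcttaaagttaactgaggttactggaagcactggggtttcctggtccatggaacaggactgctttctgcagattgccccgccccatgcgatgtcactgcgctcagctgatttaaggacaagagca
Slfn9: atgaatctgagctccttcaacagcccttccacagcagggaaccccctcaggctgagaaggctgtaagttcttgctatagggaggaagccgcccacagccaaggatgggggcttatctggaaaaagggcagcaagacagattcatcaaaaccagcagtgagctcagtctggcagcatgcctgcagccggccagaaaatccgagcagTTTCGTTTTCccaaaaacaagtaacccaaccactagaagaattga
Slfn8: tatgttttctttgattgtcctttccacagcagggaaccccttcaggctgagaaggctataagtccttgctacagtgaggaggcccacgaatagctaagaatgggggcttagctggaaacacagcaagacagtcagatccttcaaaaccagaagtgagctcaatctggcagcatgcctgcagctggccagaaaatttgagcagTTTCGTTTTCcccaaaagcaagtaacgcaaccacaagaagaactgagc

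In Slfn2 and Slfn4, capitals mark ACTTCCTGG, the longest run that the windows of Slfn1, Slfn2, Slfn3 and Slfn4 have in common. It contains GGAA on the opposite strand, the core bound by ETS-family factors. The windows lie at chr11:83064862-83065111 (Slfn2) and chr11:83174936-83175185 (Slfn4), both on the plus strand.
Slfn2: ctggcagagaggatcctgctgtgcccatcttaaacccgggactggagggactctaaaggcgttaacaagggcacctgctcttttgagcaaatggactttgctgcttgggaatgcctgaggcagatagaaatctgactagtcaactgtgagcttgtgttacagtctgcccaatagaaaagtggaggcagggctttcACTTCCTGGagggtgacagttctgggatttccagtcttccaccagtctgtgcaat
Slfn4: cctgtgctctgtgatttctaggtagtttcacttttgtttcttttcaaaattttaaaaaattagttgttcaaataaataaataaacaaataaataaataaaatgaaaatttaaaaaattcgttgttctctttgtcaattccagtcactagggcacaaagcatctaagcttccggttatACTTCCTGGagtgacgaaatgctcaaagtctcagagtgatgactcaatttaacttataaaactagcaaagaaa

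Whole windows of 300 bases, 250 before and 50 after the start, were searched on both strands, and all 7 members had one. The ISRE core was present in the 3 long members and in no window of the 4 others. Its share was 3.44% of 32851 RefSeq windows, and 3.97% of the 17770 genes of this study with a window. Counted from the start, the match began at -45 in Slfn9, at -48 in the Slfn8 window shown and at -155 in Slfn5. RefSeq gives Slfn8 a second, overlapping window, in which the same match begins at -136. Slfn8 and Slfn9 had the same 10 letters, TTTCGTTTTC, and their windows aligned with 241 identical bases over 284 columns (84.9%). The matches in Slfn8 and Slfn9 therefore cannot be counted as independent. The interferon gamma-activated motif TTCNNNGAA was found in no member's window and in 8.30% of all windows. A missing match says only that these letters are not in this window.

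ACTTCCTGG began at -74 in Slfn1, -55 in Slfn2, -42 in Slfn3 and -73 in Slfn4, was in no long member's window, and was in 0.843% of all windows. It was picked out by comparing these 4 windows, so their share of it is no finding. These motifs did not overlap in any member. Among tested genes with a window, 37% of the 400 with an ISRE core were higher with GAFCP, and 18.9% of all 10402. Among the 116 with ACTTCCTGG, 24.1% were higher. These shares describe the windows and were not tested.

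**Figure D2:**
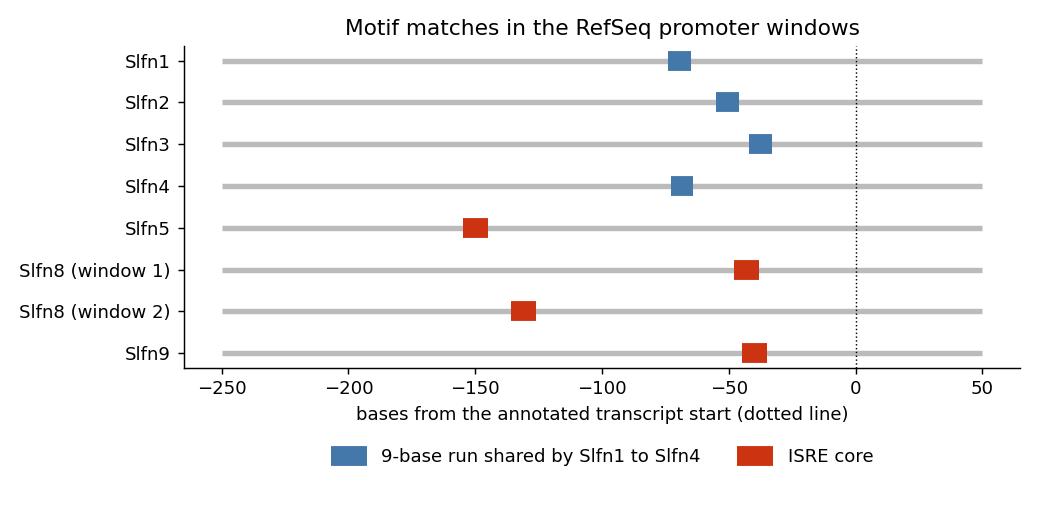
Position of motif matches in the promoter window of each Schlafen member, in bases from the annotated transcript start, with the 2 overlapping windows of Slfn8 on separate lines. The ISRE core appears in Slfn5, Slfn8 and Slfn9, and the 9-base run in Slfn1 to Slfn4.

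Genes were tested with limma on log2(TPM + 1), and a gene with an adjusted p under 0.05 over all genes tested was called higher or lower. Genes below 1 TPM in all but 1 library, or in all, were not tested. Of the genes tested, 2606 (19%) were higher and 3909 (28.5%) lower with GAFCP, 47.5% in all, against 3449 and 3425 with median-of-ratios scaling. The median log2 change over all of them was -0.07. The 5 members at or above 1 TPM in every library, Slfn2, Slfn4, Slfn5, Slfn8 and Slfn9, were all called higher. Slfn1 was also called higher, but it met the filter through the GAFCP libraries and control library 4, so its call is given apart. Slfn3 reached 1 TPM in 1 library and was not tested. Libraries are bulk samples, so more cells of a type and more RNA per cell cannot be told apart.

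Among the short members, Slfn2 stood far above the rest of the family. Slfn2 protects transfer RNAs from cleavage in T cells and is needed for their quiescence and for normal monocytes. It was at 59.5, 61.6, 55.6 and 61.9 TPM in control libraries 1 to 4 and at 202 and 198 TPM in GAFCP libraries 1 and 2. The control libraries lay within 1.11-fold of each other, and the lower GAFCP library was 3.19 times the highest control. Its log2 change was 1.73 ± 0.05 (SE; limma adjusted p = 1.5e-07), larger than that of 98.1% of genes tested. In level it passed 90.5% of all genes in the table in controls and 97.4% with GAFCP.

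Slfn1, which slows T cell growth when overexpressed, was at 0.498, 0.832, 0.589 and 1.13 TPM in control libraries 1 to 4, and the GAFCP libraries had 4.20 and 2.65 TPM. The groups did not overlap, but the libraries within each group differed more than for any other member called, the controls by 2.28-fold. The log2 change was 1.32 ± 0.20 (SE; limma adjusted p = 0.0012). At these levels the added 1 TPM shrinks the change, and the ratio of group means was 4.49.

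Of the intermediate members, Slfn4 is known as a transcript of activated macrophages and of myeloid cells in the inflamed stomach. It was at 1.17, 1.12, 1.02 and 1.09 TPM in controls, close to the filter limit and within 1.14-fold of each other. The GAFCP libraries were at 4.66 and 5.17 TPM, the lower one 3.99 times the highest control, the widest gap of the family. The log2 change was 1.49 ± 0.11 (SE; limma adjusted p = 2.1e-05).

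Slfn3, linked to differentiation of gut epithelium, was the lowest member in both groups. It was at 0.372, 0.285, 0.567 and 0.194 TPM in control libraries 1 to 4, against 1.16 and 0.919 TPM in GAFCP libraries. These groups did not overlap, and the log2 difference of 0.60 has no test in the main analysis. When every detected gene was tested, limma gave it an adjusted p of 0.0101, in a setting where 14% of 19761 genes were higher.

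The long members moved by similar amounts. Slfn5, whose human counterpart is an interferon-induced nuclear protein that represses transcription, was at 2.65, 2.27, 2.75 and 2.69 TPM in the controls, and GAFCP libraries had 6.16 and 5.47 TPM. Its log2 change was 0.93 ± 0.10 (SE; limma adjusted p = 2.2e-04), above that of 94.5% of genes tested. The lower GAFCP library was 1.99 times the highest control.

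Slfn8 and Slfn9 are mouse relatives of human SLFN11 and SLFN13. Slfn8 was at 1.83, 1.65, 1.58 and 1.93 TPM in the controls and at 3.68 and 4.20 TPM in GAFCP libraries. That gave a log2 change of 0.84 with an SE of 0.11 (limma adjusted p = 5.6e-04). Slfn9, the second most abundant member, was at 8.04, 6.9996, 5.51 and 7.41 TPM in controls, while the GAFCP libraries had 13.97 and 12.9 TPM. Its log2 change was 0.86 ± 0.13 (SE; limma adjusted p = 0.0010). Control library 3 was the lowest of the controls for Slfn2, Slfn4, Slfn8, Slfn9 and Slfn10-ps, but not for Slfn1, Slfn3 or Slfn5.

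In controls the levels ran in the order Slfn2, Slfn9, Slfn5, Slfn8, Slfn4, Slfn1 and Slfn3. The ranges of Slfn4 and Slfn1 overlapped there, as did those of Slfn1 and Slfn3, while the other neighbours in the order did not overlap. With GAFCP Slfn4 passed Slfn8, and the ranges of Slfn8 and Slfn1 overlapped. TPM allows for transcript length, but reads shared between members, described below, limit how far these levels can be compared.

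The make-up of the family's summed TPM shifted. Slfn2 was 80.3% to 82.4% of the sum in control libraries and 85.6% and 86.3% in GAFCP libraries, and Slfn4 went from 1.43% to 1.58% up to 1.98% and 2.26%. Slfn9 was 8.15% to 10.9% in controls and 5.94% and 5.63% with GAFCP, so its share was lower while its level was higher. Slfn5 was 3.03% to 4.06% of the sum in controls and 2.62% and 2.39% with GAFCP. Slfn1 and Slfn3 shares overlapped between groups. Whether the short and intermediate members differ in response from the long ones was not tested.

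Some members resemble each other enough for reads to be shared. Of the 31-base words in the GENCODE M21 transcripts of Slfn8, 26.7% also occurred in another Schlafen gene, 19.1% in Slfn9 and 18.7% in Slfn10-ps. The share was 19.8% for Slfn9, 15.9% for Slfn3 and 15.3% for Slfn4, the last 2 mostly with each other. It was 8.14% for Slfn2, which shared 6.98% of its words with Slfn4 and 2.75% with Slfn3. Slfn4 in turn shared 2.86% of its words with the far more abundant Slfn2. The share was 1.96% for Slfn1, and Slfn5 shared none. With 100-base words the share was 3.38% for Slfn8, 3.71% for Slfn9 and 0.128% for Slfn2. How Salmon divided such reads was not examined.

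Sums over similar members depend less on that division, though not fully, because TPM divides by transcript length and the members differ in length. Slfn8 and Slfn9 together were at 7.09 to 9.88 TPM in controls and at 17.6 and 17.1 TPM with GAFCP. With Slfn10-ps, which shares words with both, added, the sum was 12.7 to 17.8 TPM and then 26.7 and 27.0 TPM. The ratio of group means was 1.73 with Slfn10-ps and 1.99 without it. Slfn3 and Slfn4 together were at 1.29 to 1.59 TPM in controls and at 5.82 and 6.09 TPM with GAFCP. The short members Slfn1 and Slfn2, which shared 1 such word, were together at 56.2 to 63.1 TPM and at 206 and 200.5 TPM. Each sum was higher in both GAFCP libraries than in every control. Slfn9 was 3.48 to 4.39 times Slfn8 in controls and 3.80 and 3.07 times with GAFCP, so the ratio within this pair overlapped between groups.

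Other rows named Slfn were at or near 0. Slfn10-ps, a transcribed pseudogene between the long and short members, was the exception, at 7.90, 6.54, 5.61 and 6.94 TPM in the controls and 9.06 and 9.91 TPM in GAFCP libraries. Its log2 change was 0.44 ± 0.12 (SE; limma adjusted p = 0.0172), with 32.4% of its 31-base words shared with Slfn8 or Slfn9. The call was lost without GAFCP library 1 (limma adjusted p = 0.0607) and without GAFCP library 2 (limma adjusted p = 0.125). Slfn14 and Slfnl1 stayed under 0.13 TPM in every library, and Slfn5os, antisense to Slfn5, was listed at 0 in all 6.

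**Figure D3:**
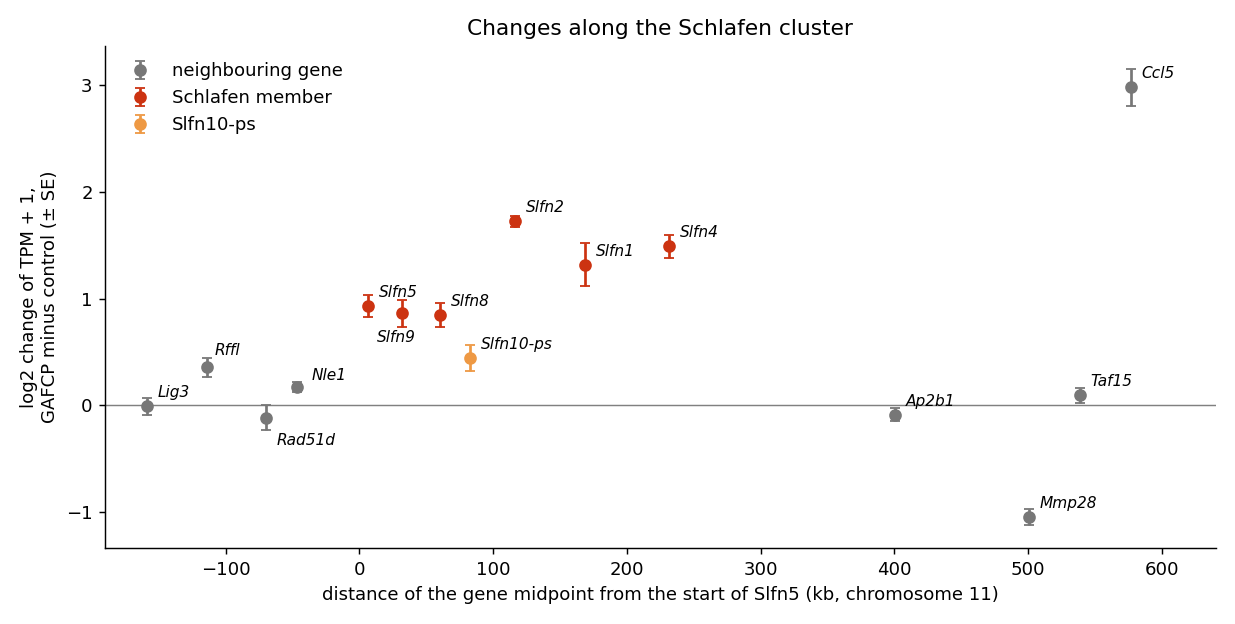
log2 change of TPM + 1 (GAFCP minus control, ± SE) for tested genes around the Schlafen cluster, by distance of the gene midpoint from the start of Slfn5 in kb. Tested Schlafen members lie between 0.84 and 1.73, while of their neighbours Ccl5 lies at 2.98 and Mmp28 at -1.05.

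Genes beside the cluster did not move as a block. Of 12 neighbours, 8 were tested, 3 were higher and 1 lower, where 19% of all genes tested were higher and 28.5% lower. The median log2 change of the 8 was 0.04. The T cell chemokine gene Ccl5, 574 kb from the start of Slfn5, went from 2.96 to 5.26 TPM in controls to 35.5 and 38.7 TPM with GAFCP. The matrix metalloproteinase gene Mmp28 went from 12.5 to 14.0 TPM down to 6.27 and 5.58 TPM. Rffl and Nle1 were higher by 0.36 and 0.17. The closest of these to the cluster, Unc45b, was under 0.11 TPM in every library. Lig3, Rad51d, Ap2b1 and Taf15 did not pass. Nle1 lost its call without GAFCP library 1, and both Nle1 and Rffl lost theirs without GAFCP library 2, which left 1 neighbour higher. Without control library 3, 2 neighbours were lower.

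Interferon-stimulated genes were higher in the same libraries. All 30 genes of a type I interferon list were called higher, where 19% of all genes tested were. This list was chosen with earlier results of these data known. Its median log2 change was 1.79, with a range of 0.27 to 2.998. Eif2ak2, the lowest, lost its call when control library 2, GAFCP library 1 or GAFCP library 2 was left out. The changes of the tested Schlafen members, 0.84 to 1.73, lie within that range and, on this scale, below the list's median. The added 1 TPM shrinks the changes of low genes such as Slfn1 and Slfn4. By ratio of group means, Slfn1 (4.49) and Slfn4 (4.47) lay above the list's sum (3.76), and every other member lay below it. The virus tether gene Bst2 had a log2 change of 1.77 and the apoptosis-linked gene Xaf1 2.21, and Oasl2 and Irf7 had 2.30 and 2.40. Of 15 interferon signalling genes 10 were higher and 2 lower, where 19% of all genes tested were higher and 28.5% lower. Their median was 0.43. Irf2 lost its call when GAFCP library 1 or GAFCP library 2 was left out, and Jak1 when GAFCP library 1 was. The transcription factors Stat2, Irf1 and Irf9, which act on the ISRE, rose by 1.55, 1.94 and 0.85. The feedback genes Socs1 and Socs3 rose by 2.05 and 1.41. The lower ones were the interferon gamma receptor genes Ifngr2 and Ifngr1, at -0.39 and -0.37.

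Lists tied to the family's RNA and DNA functions held calls in both directions, some of which depended on single libraries. Of 8 genes of transfer RNA cleavage or its control 1 was higher and 1 lower, where 19% of all genes tested were higher and 28.5% lower. The median log2 change of the 8 was 0.01. The 2 called were the ribonuclease gene Ang (0.55) and its inhibitor Rnh1 (-0.12), and neither was called without GAFCP library 1 or without GAFCP library 2. Ang was also not called without control library 1, 3 or 4, nor Rnh1 without control library 4. Of 13 replication stress genes 5 were higher and 2 lower, with a median of 0.15, where 19% of all genes tested were higher and 28.5% lower. The replication licensing gene Cdt1 had a log2 change of 0.40 and the helicase subunit gene Mcm3 0.30, and the ubiquitin ligase subunit gene Ddb1 had -0.41 and the checkpoint kinase gene Chek1 -0.38. Without GAFCP library 1 the counts were 2 higher and 2 lower, without GAFCP library 2 they were 3 and 2, and without control library 3 they were 4 and 4.

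Markers of immune cells moved with the Schlafen genes. Of all genes tested, 19% were higher and 28.5% lower. All 10 pan-leukocyte markers were higher (median log2 change 1.32), their summed level going from 108 to 127 TPM in controls to 319.6 and 331 TPM with GAFCP. Ptprc, which encodes CD45, was at 2.17 to 3.06 TPM in the controls, against 10.1 and 9.45 TPM in GAFCP libraries. All 18 macrophage markers were higher (median 1.68), summing to 1171 to 1232 TPM in the controls, against 3773 and 3777 TPM in GAFCP libraries. Of 14 T and NK cell markers 10 were tested and all 10 were higher (median 1.67), with sums of 8.21 to 10.8 TPM and then 50.1 and 46.2 TPM. Among these 10, Cd3e, Cd3g, Cd8b1 and Cd4 met the filter only through the GAFCP libraries. Of the controls, Cd2 reached 1 TPM in control library 4 alone and Nkg7 in control library 2 alone, so both also needed the GAFCP libraries. The calls of all these genes partly follow from the filter. Prf1, Klrk1, Cd247 and Ncr1 were not tested. Of 7 tested neutrophil markers, from a list of 11, 5 were higher and 2 did not pass. Il1r2, one of those higher, met the filter only through the GAFCP libraries. The neutrophil sums were 36.5 to 41.8 TPM and then 111 and 120.4 TPM. No defining marker in these 4 lists was at 0 in all libraries.

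Set side by side as ratios of group means, Slfn2 was at 3.35, the macrophage sum at 3.17 and the pan-leukocyte sum at 2.73. The T and NK cell sum was at 4.91, the neutrophil sum at 2.97 and the type I interferon sum at 3.76. Single macrophage markers ranged from 1.19 (Cd14) to 7.43 (Aif1), so the ratio of a sum does not stand for each marker. The part of these cells in the Schlafen changes was not tested. B cell markers summed to under 2.26 TPM in every library and none was tested. The counts that follow stand beside 19% higher and 28.5% lower over all genes tested. Of 3 tested dendritic cell markers 1 was higher and 1 lower, with sums of 7.40 to 8.16 TPM and then 7.21 and 6.68 TPM. Of 10 fibroblast markers 7 were higher and 1 lower, with sums of 215.7 to 238 TPM and then 352.6 and 353 TPM. Of 2 tested endothelial markers 1 was higher, with sums of 4.49 to 5.51 TPM and then 5.81 and 6.32 TPM.

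Keratins, which mark epithelial cells, were abundant in all 6 libraries of sorted tumor cells. Krt8 was at 2265 to 2401 TPM in controls and at 1548 and 1541 TPM with GAFCP. Of 8 epithelial markers 6 were lower and none was higher, where 28.5% of all genes tested were lower and 19% higher. Their median log2 change was -0.56. The surface adhesion gene Epcam was at 12.5 to 13.1 TPM in the controls, against 1.68 and 1.39 TPM in GAFCP libraries, a log2 change of -2.45 and the lowest of the list. The sum of all 8, most of it keratins, was 6806 to 7189 TPM in the controls, against 5176 and 5206 TPM in GAFCP libraries.

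**Figure D4:**
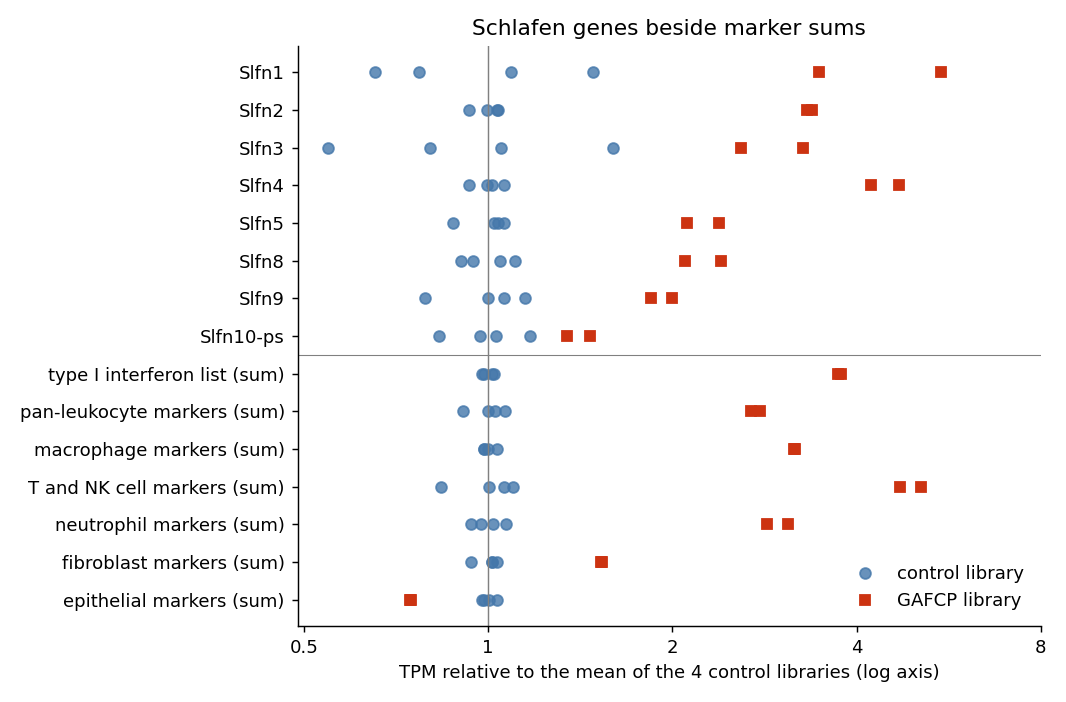
Each Schlafen gene and each summed list in each library, relative to the mean of the 4 control libraries (log axis), with circles for controls and squares for GAFCP. The GAFCP squares of Slfn2 lie between those of the type I interferon sum and those of the macrophage, neutrophil and pan-leukocyte sums. Those of Slfn9 and Slfn10-ps lie further left, and those of the epithelial sum lie below 1.

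Many genes followed the members across the 6 libraries, since the groups are far apart. Pearson r of log2(TPM + 1) exceeded 0.95 with Slfn2 for 1564 genes (11.4% of those tested), and with Slfn1 for 469 (3.42%). The genes most like Slfn2 were Atf3, a stress-induced transcription factor (r = 0.9999), and the guanylate-binding protein genes Gbp3 and Gbp5 (both r = 0.9998). Those most like Slfn4 were H2-Q5, Ms4a6b and Ptpn22 (all r = 0.9995). Slfn1 was closest to Zufsp, Lemd2 and Ctla4 (r = 0.9951, 0.9944 and 0.9931).

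Slfn5 was closest to Tipin, Csf2ra and Fpr2 (r = 0.9972, 0.9965 and 0.9960). Slfn8 was closest to P2ry6, Sp110 and Nmnat2 (r = 0.9986, 0.9980 and 0.9980), and Slfn9 to Ostm1, Bid and Cmss1 (r = 0.9991, 0.9974 and 0.9973). No member was among the 3 closest genes of another. All these values rest on 4 control and 2 GAFCP libraries and describe likeness of pattern, not of size. Tipin, for example, had a log2 change of 0.26 where Slfn5 had 0.93.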

How the data were processed

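RNA from sorted tumor cells was extracted with an RNeasy kit, per the labels' protocols. The deposited TPM table holds 1 value per gene and library, and the submitters' processing notes name Salmon and mm10. Neither the version of Salmon nor its transcript set is given in the sources used here. TPM does not keep the sequencing depth, which is unknown, and only the differences among libraries show the precision. Sample titles give groups and replicate numbers.

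Testing took the 13720 genes that reached 1 TPM in 2 or more libraries. The log2(TPM + 1) values entered limma 3.58.1 (R 4.3.3) with trended empirical Bayes, which left 4 residual degrees of freedom. This scale understates the change of low genes. Benjamini-Hochberg adjustment covered every gene tested. The script was tested on simulated data.

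The members, gene lists and marker lists were chosen with earlier results of these data known. Named genes were all rows named Slfn, up to 4 called genes with the smallest p per gene list, neighbours on chromosome 11, and the 3 genes most like each tested member, leaving out predicted and small RNA genes. Irf9, Socs1, Ifngr1, Ifngr2, Krt8 and Epcam were named after their values were seen. Positions and promoter windows are from RefSeq on GRCm38.p6 and matched all 7 members by symbol. Some listed genes are not reported here and were left out of the list counts.

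Alternatives changed the pseudocount (0.1 and 5), filter, scaling, variance model, library weights and control libraries used, added a term for the replicate number, or omitted single libraries.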

Additional observations from a re-analysis of the deposited data

How the results depend on the processing

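Slfn1, Slfn2, Slfn4, Slfn5, Slfn8 and Slfn9 stayed higher and called under every alternative that tested them (18 each for Slfn1, Slfn4, Slfn5 and Slfn8, 19 each for Slfn2 and Slfn9), each library left out included. The mean of at least 5 TPM tested only 2 members, both called, in place of 6. Fits on fewer libraries kept the genes that passed the filter over all 6 libraries, and the filter was not redone. Slfn1 had passed it partly through the GAFCP libraries, so its calls there partly follow from the filter. The pseudocount set the size of low genes: Slfn1 changed by 2.05 with 0.1 TPM added and 0.54 with 5, Slfn4 by 2.06 and 0.70, and untested Slfn3 by 1.38 and 0.17. Whether the replicate numbers pair libraries cannot be told. Same-numbered deviations correlated at -0.01 and -0.02, but with 2 GAFCP libraries the deviations of either mirror those of the other. Only numbers 1 and 2 occur in both groups, so control libraries 3 and 4 add nothing to a blocked comparison. Control libraries 1 and 2 correlated at r = 0.987 and 3 and 4 at 0.989, against 0.982 to 0.984 between these pairs. With control libraries 1 and 2 only, 2318 genes were higher and 4240 lower. With control libraries 3 and 4 only, the counts were 2477 and 2871. With the replicate number as a block, 2128 genes were higher and 3766 lower, the 6 members stayed called and Slfn10-ps was not (0.36, limma adjusted p = 0.0853). Without each library in turn Slfn10-ps ranged from 0.37 to 0.51, genes called lower from 2486 (without GAFCP library 1; 2599 without GAFCP library 2) to 4638 (3909 with all libraries), and Schlafen calls were 6 each time. Genes called higher were 40% of all calls, and 50.2% with median-of-ratios scaling. Small list counts varied. Transfer RNA genes called higher were 0 with no filter, no mean-variance trend, robust variance, the block or control libraries 1 and 2 only, and 2 with median-of-ratios scaling. Those called lower were 0 with that scaling, no trend, the block or control libraries 3 and 4 only. Neighbouring genes called lower were 2 with no filter or with library weights, and those called higher were 1 with the block. Replication stress genes called lower were 4 with library weights or with control libraries 1 and 2 only. Without each library in turn, transfer RNA genes ranged from 0 to 1 higher and 0 to 1 lower, neighbours from 1 to 3 higher and 1 to 2 lower, and replication stress genes from 2 to 6 higher and 2 to 4 lower. The cause of these differences was not tested. With no depth given, counting error at the low levels of Slfn1, Slfn3 and Slfn4 cannot be stated.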
